A study of Mus musculus with 12 samples.

Results

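The data described here are the RNA levels of 9 liver transcripts that were lower in livers labelled HuRHep-/- than in livers labelled WT under both diets of the study. Of the 9, 7 are protein-coding: Ptgr2, Kyat3, Dlst, Etfbkmt, Mcur1, Ddx23 and Tmem243. The other two, Tmem250-ps and A430018G15Rik, are annotated as non-coding. They were chosen by their small p-values for genotype and their lower counts in livers labelled HuRHep-/-, among the 20093 genes listed in both deposited count tables. Every statement on genotype for the 9 transcripts is therefore a description without a test. All 9 were found in both tables, 2 of them under older names (Tmem250-ps as C330006A16Rik and Etfbkmt as Mettl20), and all 9 passed the filter on low counts.

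RNA of whole livers was sequenced from 12 male C57BL/6N mice, 3 in each of 4 groups, and every animal carried floxed Elavl1, the gene of the RNA-binding protein HuR. By the labels, mice of 4 to 6 months received an adeno-associated virus, AAV8-Tbg-Cre in the HuRHep-/- groups and AAV8-Tbg-null in the WT groups, with Tbg a promoter active in hepatocytes. The study's methods instead describe a cross with Alb-Cre mice, and the count tables do not show which holds. Mice were kept on normal chow or received for 16 weeks a high-fat, high-cholesterol, high-fructose (HFCF) diet, with 40% of energy from fat, 20% from fructose and 2% cholesterol. The labels number the replicates without naming animals, so p-values measure the spread between these samples.

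Libraries held 30071731 to 35949203 counts on genes, and mitochondrially encoded genes took 10.38 to 12.92% of them. Raw counts of Elavl1 were higher, not lower, in livers labelled HuRHep-/-: 1261 to 1475 against 876 to 948 in chow, and 1242 to 1299 against 791 to 904 in HFCF. This goes against the label, though counts per gene cannot show whether the floxed part of Elavl1 was lost. Groups are therefore named by their labels throughout, and each direction given for genotype rests on those labels. Hepatocyte markers were present in every liver. Their summed level over 8 genes was lower in livers labelled HuRHep-/- without overlap, at 75140 to 85750 against 93280 to 112700 CPM (counts scaled to a common library size) in chow and 67090 to 75310 against 77270 to 85270 CPM in HFCF. Of these 8 genes, 2 had higher estimates in each diet. At an adjusted p of at most 0.05 from limma, 0 of the 8 passed in chow and 1 in HFCF. In HFCF the summed markers of cholangiocytes (141.6 to 257 against 41.6 to 94.7 CPM), lymphocytes (6.49 to 7.45 against 3.10 to 4.87 CPM) and neutrophils (4.515 to 5.86 against 2.34 to 3.55 CPM) were higher without overlap, and in chow those of Kupffer cells were (189.7 to 280.5 against 134 to 173 CPM). At the same adjusted p, 2 of 5 cholangiocyte genes passed in HFCF, with 0 of 7 for lymphocytes and 0 of 3 tested for neutrophils. In chow 0 of 8 Kupffer cell genes passed. Summed endothelial and stellate cell markers overlapped between the labels in both diets. The part of these shifts in the results below was not tested, and in bulk tissue fewer cells of a type and less RNA per cell cannot be told apart.

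HuR belongs to the ELAV family of proteins, which recognise RNA through RRM domains and prefer stretches rich in U, among them the AU-rich elements of short-lived messages. A message held by HuR is often protected from decay. In the liver its deletion has been used to study lipid handling, stress responses and injury. Most of the coding transcripts described here serve mitochondria: Dlst encodes the succinyl-transferring core of the 2-oxoglutarate dehydrogenase complex, Etfbkmt a methyltransferase of the electron transfer flavoprotein, Mcur1 a regulator of the mitochondrial calcium uniporter, and Kyat3 an aminotransferase that acts on kynurenine. Ptgr2 encodes a reductase of 15-keto prostaglandins, Ddx23 the DEAD-box helicase of the U5 small nuclear ribonucleoprotein, and Tmem243 a small membrane protein.

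Because HuR is described as binding AU-rich elements, the pentamer ATTTA, with U for T in the RNA, was searched on the sense strand in the longest annotated 3′ untranslated region (3′UTR) of each coding member. It occurred in all 7, with 6 copies in Mcur1, 5 in Ptgr2, 3 each in Kyat3 and Tmem243, 2 in Etfbkmt and 1 each in Dlst and Ddx23. The pentamer is common. It was held by 68.25% of 16113 genes listed in both tables with a 3′UTR, whose median 3′UTR is 1102 bases long and has 1.255 copies per kb. Per kb of 3′UTR the members ranged from 0.749 copies in Dlst (1335 bases) to 6.4 in Tmem243 (469 bases), with Dlst and Kyat3 (1.10) below that median and the other 5 above it. The run TTTTT, with overlapping copies counted, was also in all 7, with 1 copy in Etfbkmt to 36 in Ddx23, and 75.68% of the 3′UTRs hold it. Over all these 3′UTRs the medians are 4 copies and 3.53 copies per kb. The longer form TATTTAT was found only in Mcur1, with 1 copy, and 28.91% of the 3′UTRs hold it. A match is a description of the letters and not a binding site. Introns, where HuR is also described as binding, were not searched. The copy closest to the stop codon of each coding member is shown with its flanks, as the reference transcript reads from 5′ to 3′ (GENCODE, GRCm38), with the pentamer in capitals.
Ptgr2: cttaacatgcATTTAaaaataatct
Kyat3: caggacaaacATTTAaataagtact
Dlst: taactaaaatATTTAaagagactga
Etfbkmt: ttcttaaaacATTTAaatagtctct
Mcur1: taaagtgtctATTTAaagacatttt
Ddx23: cccatttggcATTTAaagcaggttg
Tmem243: atctatgtgaATTTAactgctgcaa
These windows of 25 bases lie in 3′UTR exons at chr12:84314068-84314092 on the plus strand for Ptgr2, chr3:142744206-142744230 on the plus strand for Kyat3 and chr12:85134027-85134051 on the plus strand for Dlst. Those of Etfbkmt and Tmem243 are at chr6:149144756-149144780 and chr5:9118614-9118638, both on the plus strand. Those of Mcur1 and Ddx23 are at chr13:43541649-43541673 and chr15:98645356-98645380, both on the minus strand. Counted from the base after the stop codon, the pentamer starts at base 11 in Mcur1 and at base 1284 in Dlst, so its place within the 3′UTR differed widely between members.

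The non-coding members have no 3′UTR. A430018G15Rik (ENSMUSG00000085315, chr2:52425012-52434885, plus strand) starts 111 bases from the start of Arl5a, a gene for a small GTPase on the opposite strand. The bases between the starts are shown because they lie in front of both genes and only A430018G15Rik was among the members. Capitals mark overlapping copies of GGGCGG, searched on both strands (RefSeq promoter table, GRCm38.p6, chr2:52424902-52425011, plus strand).
Between Arl5a and A430018G15Rik: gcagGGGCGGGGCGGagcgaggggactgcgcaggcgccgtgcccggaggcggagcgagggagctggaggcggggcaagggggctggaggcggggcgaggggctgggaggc
The stretch of 110 bases holds 12 CG dinucleotides. The RefSeq table gave promoter windows of 300 bases for 8 of the 9 members, all but Ddx23. Each held 14 to 42 CG dinucleotides, against a median of 7 in 32851 promoters, and none held TATAAA, which 13.62% of promoters hold on either strand. These 32851 are all promoters of the RefSeq set and not only those of genes listed in these livers. The windows of Tmem250-ps and Etfbkmt lie inside the GENCODE spans of these genes. GGGCGG was in 5 of the 8, and 35.66% of promoters hold it. The other motifs searched on both strands were the CCAAT box, the letters TTCCGG of the ETS family and the E-box CACGTG, and no motif was in all 8.

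Levels are given as CPM after TMM scaling (a trimmed mean of gene ratios) of all 12 libraries together, and genotype differences, scaled and fitted within each diet, as log2 CPM in livers labelled HuRHep-/- minus WT with the standard error (SE) from limma. A430018G15Rik had the lowest level and the largest difference. In chow its level was 4.38, 4.78 and 4.35 CPM in the livers labelled WT and 0.377, 0.526 and 0.646 CPM in those labelled HuRHep-/-. In HFCF it was 4.83, 4.64 and 4.38 CPM against 0.474, 0.985 and 0.862 CPM. The groups did not overlap, and the lowest WT liver stood 6.73 times above the highest HuRHep-/- liver in chow and 4.45 times in HFCF. These levels rest on 133 to 183 raw counts per WT liver and 13 to 38 per HuRHep-/- liver, and the log2 differences were -3.11 (SE 0.23) in chow and -2.64 (SE 0.28) in HFCF. Opposite its exons lie exons of Cacnb4, a calcium channel subunit gene, which cover 83.65% of its exon bases. The libraries were stranded, and Cacnb4 had 1 to 23 raw counts in every liver, with overlapping ranges in both diets. Its log2 differences, -1.16 (SE 0.82) in chow and -0.89 (SE 0.41) in HFCF, did not pass the test. Arl5a did not pass the test in either diet (log2 difference -0.07, SE 0.059, and -0.06, SE 0.063).

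Tmem250-ps (ENSMUSG00000087679, chr2:26136814-26140521, minus strand) is annotated as a long intergenic RNA and carries the name of a pseudogene of Tmem250. Its levels in chow were 71.7, 67.4 and 65.0 CPM in the livers labelled WT and 27.3, 22.9 and 22.03 CPM in those labelled HuRHep-/-. In HFCF they were 65.0, 81.9 and 75.7 CPM against 24.0, 23.0 and 20.85 CPM. Livers labelled HuRHep-/- thus held 35.4% of the WT mean in chow and 30.5% in HFCF, and the 6 of them lay within a narrow range across the diets. The log2 differences were -1.50 (SE 0.093) and -1.72 (SE 0.10). On the opposite strand 14.82% of its exon bases overlap 1810012K08Rik, which had 2 to 13 raw counts per liver.

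Ptgr2 (ENSMUSG00000072946, chr12:84285232-84315832, plus strand) was the coding member with the largest difference. In chow its level was 66.05, 65.6 and 65.1 CPM in livers labelled WT and 24.3, 28.2 and 28.5 CPM in those labelled HuRHep-/-. In HFCF it was 60.9, 72.8 and 62.8 CPM against 25.0, 29.3 and 30.9 CPM. The 3 chow WT livers differed by less than any other group of this gene, and in both diets the highest HuRHep-/- liver lay under every WT liver by at least 1.97 times. Its log2 differences, -1.28 (SE 0.077) and -1.22 (SE 0.10), were nearly the same in the 2 diets. Gm47484, an opposite-strand gene not analysed here, covers 31.98% of its exon bases.

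Kyat3 (ENSMUSG00000040213, chr3:142701051-142746870, plus strand) varied most between WT livers of a diet. In chow the livers labelled WT had 263, 164 and 163 CPM and those labelled HuRHep-/- had 102, 124 and 134 CPM. In HFCF the levels were 149, 145.5 and 152 CPM against 84.6, 82.8 and 85.0 CPM. Chow WT replicate 1 stood far above its group, and the lowest chow WT liver was only 1.22 times the highest HuRHep-/- liver, the smallest gap of the 9 transcripts. The log2 difference was -0.68 (SE 0.19) in chow, or -0.45 without chow WT replicate 1, and -0.84 (SE 0.053) in HFCF, where the livers of each group lay close together.

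Dlst (ENSMUSG00000004789, chr12:85110833-85134845, plus strand) had 175.5, 183 and 170.4 CPM in chow livers labelled WT and 114.5, 113 and 130 CPM in those labelled HuRHep-/-. In HFCF it had 191, 207.5 and 195 CPM against 105, 101 and 94.85 CPM. WT livers were higher in HFCF than in chow, all 3 above all 3, and HuRHep-/- livers were lower, all 3 below all 3. The log2 difference between the labels was -0.56 (SE 0.072) in chow and -0.997 (SE 0.066) in HFCF. Dlst lies 795001 bases from Ptgr2 on chromosome 12, and Prox2, which starts 74 bases away on the opposite strand, did not pass the test in either diet (0.16, SE 0.28, and -0.54, SE 0.24).

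Etfbkmt (ENSMUSG00000039958, chr6:149139849-149151171, plus strand) had 83.0, 89.9 and 82.8 CPM in chow livers labelled WT and 49.5, 40.95 and 42.6 CPM in those labelled HuRHep-/-. In HFCF it had 54.95, 57.3 and 44.9 CPM against 35.75, 34.1 and 35.0 CPM. The HFCF WT livers lay well below the chow WT livers, and the HFCF groups were separated by 1.26 times at their nearest values. Its log2 difference was -0.94 (SE 0.085) in chow and -0.59 (SE 0.10) in HFCF.

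Mcur1 (ENSMUSG00000021371, chr13:43538393-43560191, minus strand) had 35.6, 37.4 and 37.5 CPM in chow livers labelled WT and 25.6, 23.1 and 24.9 CPM in those labelled HuRHep-/-. In HFCF it had 39.8, 42.5 and 38.8 CPM against 22.3, 21.8 and 22.8 CPM. As with Dlst, WT livers were all higher and HuRHep-/- livers all lower in HFCF than in chow. For the HuRHep-/- livers of Mcur1 this separation was lost with upper-quartile scaling, and for those of both genes with library totals. The log2 difference was -0.58 (SE 0.069) in chow and -0.87 (SE 0.065) in HFCF.

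Ddx23 (ENSMUSG00000003360, chr15:98645134-98662894, minus strand) had 34.3, 32.1 and 35.6 CPM in chow livers labelled WT and 20.9, 19.7 and 20.5 CPM in those labelled HuRHep-/-. In HFCF it had 32.1, 36.9 and 32.6 CPM against 17.35, 17.34 and 17.37 CPM. The 3 HFCF livers labelled HuRHep-/- were almost equal. The log2 difference was -0.73 (SE 0.069) in chow and -0.98 (SE 0.076) in HFCF.

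Tmem243 (ENSMUSG00000079659, chr5:9100668-9160986, plus strand) had 99.7, 80.75 and 92.4 CPM in chow livers labelled WT and 49.7, 46.9 and 53.2 CPM in those labelled HuRHep-/-. In HFCF it had 77.6, 73.5 and 84.5 CPM against 41.9, 41.3 and 41.3 CPM. Both groups labelled HuRHep-/- lay at 54.9% and 52.8% of their WT means, with log2 differences of -0.85 (SE 0.088) and -0.93 (SE 0.067). Of the 31-base words of its longest transcript, 3.56% are shared with another gene, against at most 0.551% in each of the other 8 members.

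**Figure D1:**
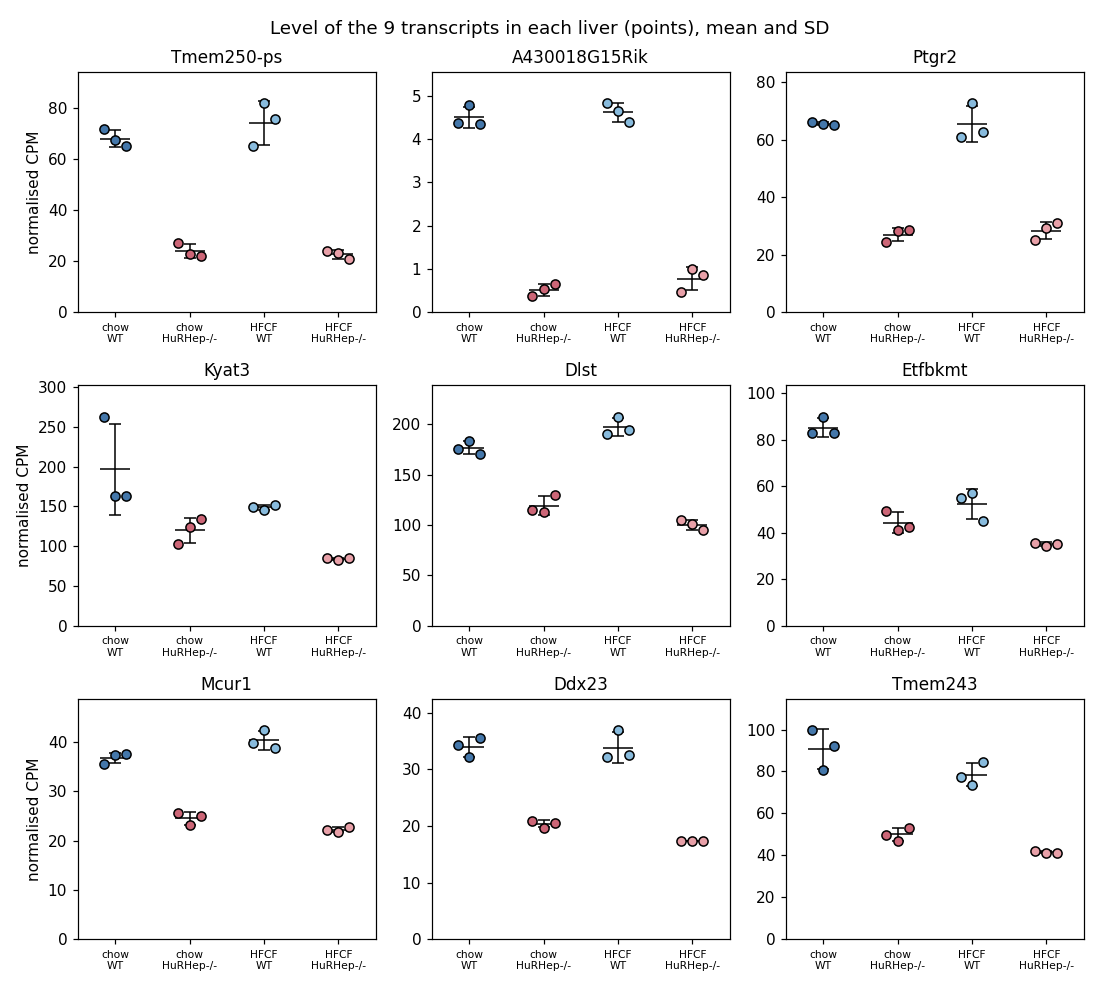
Normalised CPM (linear axis from 0) of the 9 transcripts in each of the 12 livers, by diet and label, with points for livers, horizontal marks for means and bars for the SD (n = 3). In every panel the 3 livers labelled HuRHep-/- lie below the 3 labelled WT of the same diet, and Kyat3 shows 1 chow WT liver at 263 CPM above the other two near 164 CPM.

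Compared per length, as mean CPM per kb of exon in chow livers labelled WT, Etfbkmt was highest at 34.2 ± 1.62 (SD, n = 3), followed by Tmem250-ps at 27.4 ± 1.36. Kyat3 (20.7 ± 6.04) and Dlst (18.45 ± 0.675) came next and did not differ beyond their spread. The wide spread of Kyat3 also reached those of Tmem250-ps and Tmem243. Tmem243 (13.3 ± 1.40) and Ptgr2 (11.06 ± 0.0828) were in the middle. Ddx23 (5.46 ± 0.281) and Mcur1 (5.21 ± 0.149) did not differ beyond their spread either, and A430018G15Rik was lowest at 2.63 ± 0.142. In HFCF livers labelled WT, Tmem250-ps led at 29.9 ± 3.45, and Etfbkmt, at 20.98 ± 2.63, lay beside Dlst at 20.7 ± 0.921 within their spread. The length of a gene was taken as all its exon bases in GENCODE, joined over its transcripts. It is 9559 bases for Dlst and 9518 for Kyat3, whose longest transcripts have 3220 and 4206. Etfbkmt has 2496 and 1576, so the order in both diets holds for this length only.

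Over the 9 transcripts, the median log2 difference between the labels was -0.85 in chow, with a range from -3.11 to -0.56, and -0.98 in HFCF, with a range from -2.64 to -0.59. The median over all genes tested was 0.005 in chow and -0.002 in HFCF. All 9 were lower without overlap in both diets, and of all genes tested 14.2% were lower without overlap in chow and 19.2% in HFCF. A gene was called at an adjusted p of at most 0.05 with a fold change of at least 1.5 and 10 counts over each group. By this rule 6 of the 9 were called lower in chow, where 0.969% of 13526 genes were, and 9 in HFCF, where 1.47% of 14295 genes were. By the adjusted p alone it was 8 in chow (1.94% of all genes lower) and 9 in HFCF (3.95%). The rule that picked the members used these contrasts, so nothing is read from these counts.

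Ordered by the genotype p over all 12 livers, 6886 of 14535 genes had lower estimates, and the members held places 1 to 7 (Tmem250-ps, Ptgr2, Ddx23, Mcur1, Dlst, A430018G15Rik, Tmem243), 17 (Etfbkmt) and 173 (Kyat3). The genes at places 8 to 10 that were not picked were D3Ertd751e, Fam120b and Tnpo2, with log2 differences over both diets of -1.19, -0.86 and -0.89. Tmem243, the last member before them, had -0.89. Kyat3 had -0.75, and Tmem205 before it and Srpk1 after it had -0.36 and -0.30, each with a smaller SE.

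The estimates of the 2 diets are set side by side as a description only, since both were used to pick the members. HFCF minus chow, the log2 difference between the labels was -0.41 for Dlst, -0.27 for Mcur1, -0.22 for Ddx23, -0.20 for Tmem250-ps, -0.14 for Kyat3 and -0.06 for Tmem243, and it was 0.08 for Ptgr2, 0.37 for Etfbkmt and 0.50 for A430018G15Rik, the member with the fewest counts. Negative values stand for a larger gap between the labels in HFCF.

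**Figure D2:**
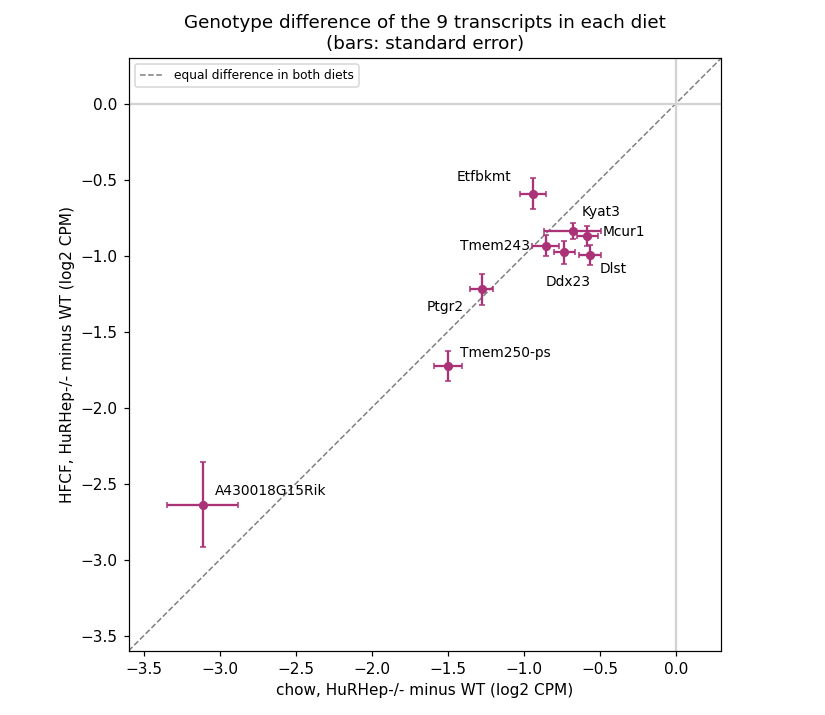
Log2 CPM in livers labelled HuRHep-/- minus WT in chow (x axis) and HFCF (y axis), 1 point per transcript with bars for the SE. All 9 lie below 0 on both axes, A430018G15Rik farthest out at -3.11 and -2.64, Dlst, Mcur1 and Ddx23 below the dashed line of equal differences and Etfbkmt above it.

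The diet difference, averaged over both labels, was not used to pick the members and was tested with limma over the 12 livers with Benjamini-Hochberg adjustment over 14535 genes. Its SE comes from the same spread within groups as that of the genotype contrast. Picking by small genotype p-values may favour a small SE, so the p-values and intervals of the members may be too narrow or too low. Diet and count table coincide, so diet and anything else that differs between the tables cannot be told apart. None of the 9 members was called by the adjusted p and the fold change, with 0 called also under voom weights and 4 at an unadjusted p under 0.05. Of all genes 4.05% were called lower in HFCF and 13.3% higher. By the adjusted p alone 3 of the 9 were lower in HFCF, where 24.5% of all genes were lower and 24.9% higher, so this share was near that of all genes.

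Etfbkmt fell by 0.52 on the log2 scale in HFCF (SE 0.067, adjusted p = 0.000126 from limma), from a mean of 64.8 to 43.7 CPM over both labels. It was lower in HFCF under both labels, by -0.71 (SE 0.095) in WT livers and -0.34 (SE 0.095) in HuRHep-/- livers. Kyat3 fell by 0.43 (SE 0.11, adjusted p = 0.00724 from limma), and without chow WT replicate 1 its estimate was -0.32. Tmem243 fell by 0.24 (SE 0.058, adjusted p = 0.00588 from limma), from 70.4 to 60.0 CPM. Scaled by library totals, which moves the median of all genes by 0.21 in HFCF minus chow against 0.01 with TMM, Kyat3 (-0.23, adjusted p = 0.0792) and Tmem243 (-0.03, adjusted p = 0.643) no longer passed, and Etfbkmt did (-0.32, adjusted p = 0.0032).

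The other 6 did not pass the test with all 12 livers. The estimates were -0.12 for Ddx23 (95% interval -0.23 to -0.01, adjusted p = 0.0619 from limma), -0.04 for Dlst (-0.15 to 0.06), -0.005 for Mcur1 (-0.10 to 0.09), 0.02 for Tmem250-ps (-0.14 to 0.17), 0.03 for Ptgr2 (-0.11 to 0.18) and 0.28 for A430018G15Rik (-0.12 to 0.69). Of these, 2 depended on single libraries. Ddx23 passed without chow WT replicate 2 (-0.14, adjusted p = 0.0373) or HFCF WT replicate 2 (-0.15, adjusted p = 0.0152). A430018G15Rik passed without HFCF HuRHep-/- replicate 1 (0.44, adjusted p = 0.031) and had 0.18 without chow HuRHep-/- replicate 1 or HFCF HuRHep-/- replicate 2. In 4 of the 6 the average joins estimates of opposite sign. They were 0.16 in WT and -0.25 in HuRHep-/- livers for Dlst, 0.13 and -0.14 for Mcur1, 0.12 and -0.09 for Tmem250-ps, and -0.007 and 0.07 for Ptgr2. Scaled by library totals, 5 of these 6, all but Ddx23, passed as higher in HFCF, with 0.16 for Dlst (adjusted p = 0.00769) and 0.20 for Mcur1 (adjusted p = 0.00412), against the shift of 0.21 in the median of all genes. Relative to the median of all genes, the median of the members was -0.05, a value that scaling cannot change.

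**Figure D3:**
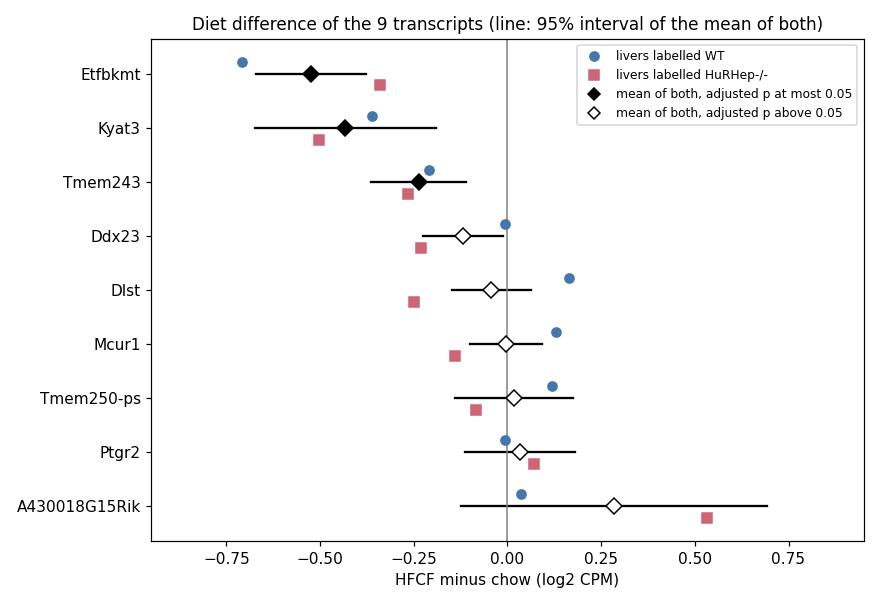
Log2 CPM in HFCF minus chow for each of the 9 transcripts, with circles for livers labelled WT, squares for livers labelled HuRHep-/-, and diamonds with 95% intervals for the mean of both. The intervals of Etfbkmt, Kyat3 and Tmem243 lie below 0 with an adjusted p of at most 0.05, and Dlst, Mcur1 and Tmem250-ps have circles above 0 and squares below it.

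The transcripts that work with the members were taken as 7 lists of 106 gene symbols, none of them a member. In chow 100 were tested, of which 0 were called higher and 1 lower in livers labelled HuRHep-/- (of all genes 1.27% were called higher and 0.969% lower). By the adjusted p alone 4 were higher and 1 lower (2.29% and 1.94% of all genes). In HFCF 102 were tested, with 1 called higher and 2 lower (2.15% and 1.47% of all genes), and 1 higher and 6 lower by the adjusted p alone (2.85% and 3.95%). The median log2 difference was 0.01 in chow and -0.07 in HFCF, beside -0.85 and -0.98 for the members. The members were picked for lower counts in these same livers, so nothing is read from this gap. These counts are small and depend on single libraries: in chow 0 were called without WT replicate 3 or HuRHep-/- replicate 2 and 2 without HuRHep-/- replicate 1. In HFCF 0 were called without WT replicate 1 or any of the 3 HuRHep-/- replicates, 1 without WT replicate 2 and 8 without WT replicate 3. The pathway genes named below with an adjusted p of at most 0.05 for genotype passed in 1 to 5 of the 6 fits that left out 1 library each.

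The other subunits of the complex around Dlst did not pass the genotype test in either diet. Ogdh, which feeds it, had log2 differences of 0.07 (SE 0.071) in chow and -0.19 (SE 0.059) in HFCF, and Dld, its dihydrolipoamide dehydrogenase, 0.04 (SE 0.059) and -0.20 (SE 0.057). Dhtkd1, the 2-oxoadipate dehydrogenase that uses the same core, had -0.10 (SE 0.11) and -0.46 (SE 0.11, adjusted p = 0.0535 from limma). Of the 14 genes of 2-oxo acid dehydrogenase complexes tested, 0 were called in either diet, and only Bckdhb, a subunit of the branched-chain complex, passed by the adjusted p alone (-0.28 in HFCF, adjusted p = 0.0377 from limma). It passed in 1 of the 6 fits with a library left out, and not with upper-quartile scaling (adjusted p = 0.063) or library totals (-0.13, adjusted p = 0.203). Of the 16 other enzymes of the TCA cycle, 0 were called, and Cs, the citrate synthase, passed by the adjusted p alone in chow (0.42, adjusted p = 0.0288).

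The electron transfer flavoprotein is the substrate of the enzyme that Etfbkmt encodes. Its subunit genes Etfa (0.00, SE 0.091, and -0.01, SE 0.061) and Etfb (-0.25, SE 0.082, and -0.21, SE 0.070) and its dehydrogenase Etfdh (-0.07, SE 0.075, and -0.28, SE 0.069) did not pass the genotype test in chow or HFCF. Of the 15 genes of this list 0 were called in either diet. Acad8 and Acad11, acyl-CoA dehydrogenases that pass electrons to the flavoprotein, passed by the adjusted p alone in HFCF (-0.49, adjusted p = 0.0188, and -0.39, adjusted p = 0.0225, from limma). With library totals Acad11 did not pass (-0.24, adjusted p = 0.0683).

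Mcur1 regulates the uniporter pore encoded by Mcu, which had 0.23 (SE 0.095) in chow and 0.03 (SE 0.090) in HFCF and did not pass the test in either. Of the list of the uniporter and its partners, 0 of 12 were called in chow and 0 of 13 in HFCF. Micu2, a calcium-sensing regulator of the uniporter, passed by the adjusted p alone in chow (0.42, adjusted p = 0.0491). It passed in 1 of the 6 fits with a library left out (adjusted p 0.0429 to 0.172), and not with upper-quartile scaling (adjusted p = 0.0508), with at least 1 count in any library (0.0547) or with the replicate block (0.057).

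Ddx23 acts in the U5 ribonucleoprotein beside Prpf8 (0.25, SE 0.080, and -0.09, SE 0.10), Eftud2 (0.26, SE 0.10, and 0.12, SE 0.073) and Snrnp200. Snrnp200, the helicase that unwinds U4 from U6, was higher in chow by 0.45 (SE 0.066, adjusted p = 0.0171 from limma), under the fold change, and had 0.09 (SE 0.13) in HFCF. Of 17 genes in this list, 1 was called lower in chow and 0 in HFCF. The called gene was Txnl4b, a thioredoxin-like protein of the spliceosome, with -0.77 (SE 0.11, adjusted p = 0.0131) in chow and -0.53 (SE 0.12, adjusted p = 0.0474) in HFCF, where it missed the fold change. In HFCF it did not pass with library totals (-0.38, adjusted p = 0.0825), upper-quartile scaling, either other filter on low counts or the replicate block (adjusted p 0.0501 to 0.0595 in these 4). Words of 31 bases shared with other genes, mainly Gm6331, make up 8.76% of its longest transcript.

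Among 12 tested genes of tryptophan and kynurenine breakdown, the route in which Kyat3 acts, 0 were called in chow and 2 lower in HFCF. These were Ido2, an indoleamine dioxygenase (-0.71, SE 0.16, adjusted p = 0.0496), and Aadat, another kynurenine aminotransferase (-0.60, SE 0.14, adjusted p = 0.0498, from limma). Both lost the call with upper-quartile scaling (adjusted p = 0.0549 and 0.0555), as with library totals and when 10 counts were required in each library. Kyat1, a paralog with the same reaction, was higher in chow by 0.56 (SE 0.068, adjusted p = 0.0106), under the fold change, and had 0.27 (SE 0.13) in HFCF. Aadat was also lower in HFCF than in chow over both labels (-0.70, SE 0.12, adjusted p = 0.00055).

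Among prostaglandin genes, 0 of 14 were called in chow and 1 of 15 in HFCF. This was Ptgr1, a reductase of the same family as Ptgr2, which was higher in HFCF livers labelled HuRHep-/- by 1.08 (SE 0.13, adjusted p = 0.0137 from limma) and had 0.47 (SE 0.13, adjusted p = 0.0878) in chow. The paralogs Ptgr1 and Ptgr2 thus had estimates of opposite sign in both diets. Hpgd, which makes the 15-keto prostaglandins, had 0.03 (SE 0.14) and -0.17 (SE 0.11). Between the diets, 5 of the 102 pathway genes tested were called higher in HFCF and 7 lower, beside 13.3% and 4.05% of all genes. By the adjusted p alone it was 19 and 31, beside 24.9% and 24.5% of all genes.

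**Figure D4:**
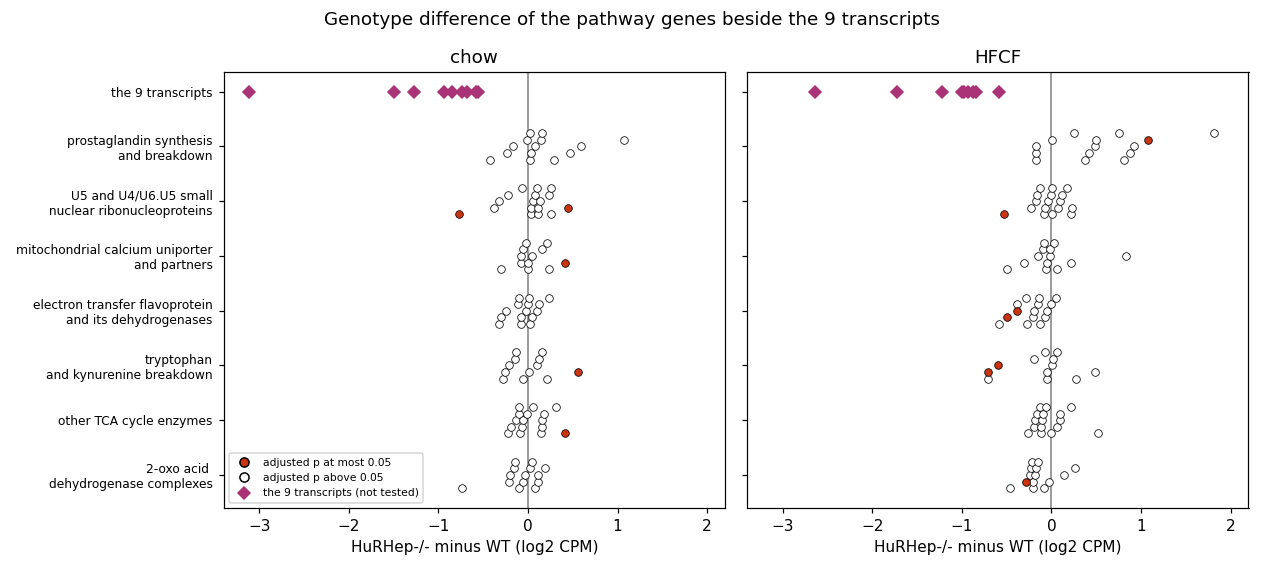
Log2 CPM in livers labelled HuRHep-/- minus WT in chow (left) and HFCF (right) for the genes of the 7 lists (circles, filled where the adjusted p is at most 0.05) and for the 9 transcripts (diamonds, not tested). The 9 were picked on these contrasts, so their distance from the lists is not a result. The median over all list genes is 0.01 in chow and -0.07 in HFCF, with the prostaglandin list at 0.48 in HFCF, and 5 circles are filled in chow and 7 in HFCF.

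The members themselves are left out of the counts of neighbouring genes, and Ptgr2 and Dlst lie within 1 Mb of each other. Of the distinct other genes tested within 1 Mb of any member, 2 of 188 in chow (1.06%) and 2 of 195 in HFCF (1.03%) were called lower, beside 0.969% and 1.47% of all genes. Called higher were 2 in chow (1.06%) and 8 in HFCF (4.10%), beside 1.27% and 2.15% of all genes. Within 1 Mb of each of 7 members, all but Etfbkmt and Ptgr2, 0 tested genes other than members were called lower in either diet, with 7 genes tested around Mcur1 and up to 62 around Tmem250-ps. The gene called beside Etfbkmt was Amn1, which lies 5976 bases after the end of Etfbkmt on the opposite strand. It was lower by -0.82 (SE 0.15, adjusted p = 0.0321 from limma) in chow and -1.17 (SE 0.14, adjusted p = 0.0149) in HFCF, a wider gap in HFCF, where that of Etfbkmt was narrower. With each library left out in turn, Amn1 passed in 2 of 6 fits in chow (adjusted p 0.0396 to 0.134) and 3 of 6 in HFCF (0.0183 to 0.0799). Within 1 Mb of Ptgr2, Acot1, an acyl-CoA thioesterase gene, was called lower in both diets (-1.39 and -1.36), but 21.55% of the 31-base words of its longest transcript are shared with other genes, mainly Acot2. Acot1 passed in 2 of 6 fits with a library left out in chow (adjusted p 0.0185 to 0.0949) and 1 of 6 in HFCF (0.0132 to 0.144). It also missed the threshold in chow with the replicate block (adjusted p = 0.0503) and in HFCF with upper-quartile scaling (0.0516) or library totals (0.0522).

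Among the nearest tested genes on either side of a member, 2 were called higher in HFCF, Gbp2 before Kyat3 (0.83, SE 0.18, adjusted p = 0.0446 from limma) and Cd83 after Mcur1 (0.61, SE 0.14, adjusted p = 0.0471). The following genes, nearest to a member or overlapping it, did not pass the test in a diet in which they were tested. Zfp410, 1020 bases after Ptgr2, had -0.09 (SE 0.096) in chow and -0.17 (SE 0.11) in HFCF. Gm15540, which overlaps Kyat3 on the opposite strand, had -0.02 (SE 0.32) and 0.29 (SE 0.46), and Gtf2b, the nearest after Kyat3 at 18175 bases, had 0.06 (SE 0.099) and 0.18 (SE 0.13). Beside Ddx23, Rnd1 at 527 bases had -0.13 (SE 0.23) and 0.33 (SE 0.15), and Cacnb3 at 605 bases had 0.01 (SE 0.38) and 1.145 (SE 0.34). Dmtf1, which covers 5.91% of the exon bases of Tmem243 from the opposite strand, had 0.13 (SE 0.10) and -0.10 (SE 0.12). 1810012K08Rik, over Tmem250-ps, was tested in HFCF only and had -0.86 (SE 0.46).

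The genes whose levels followed the mean profile of the members most closely were found by Pearson correlation over the 12 livers, after centring log2 CPM within each diet. They were Fam120b (r = 0.991), Ugt3a2 (0.989), Tnpo2 (0.982), Srsf9 (0.979), Gpbp1l1 (0.979) and L3hypdh (0.977). All points share the libraries and the split by label that picked the members, so these values are a description. The log2 differences of these 6 genes lay between -0.87 and -0.48 in chow and between -1.03 and -0.63 in HFCF.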

How the data were processed

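The authors aligned reads in CLC Genomics Workbench to refseq_GRCm38.p6 with reverse strand alignment (stated for the chow livers) and deposited raw counts per gene in 2 tables, 1 per diet (20775 and 22709 genes), without normalization. The counts are written as text with commas between groups of digits, which were removed here, and limma was used in place of tests for counts. Counts were turned here into log2 CPM with TMM scaling (trims 0.3 and 0.05) and a pseudocount of 0.5, and fitted with limma 3.58.1 in R 4.3.3, with a variance trend and Benjamini-Hochberg adjustment over all genes tested. A gene was tested when 3 or more libraries reached what 10 counts are in a library of median size and its total was 15 or more. Genotype was fitted within each table and diet over 12 livers. The fits were tested on simulated data.

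The members and lists were chosen with earlier results of these data known. Named genes are the members, Elavl1, 15 partners (1 of them not reported here), called list genes, nearest neighbours and the 6 genes most like the members. List genes passing by the adjusted p alone, Acot1, Gbp2, Cd83, Gm15540, Cacnb3 and the ranked genes were named after their values were seen. Positions come from GENCODE M21 on GRCm38. Alternatives were other scalings, filters, pseudocount, voom weights, the replicate number as a block, 1 fit over 12 livers and leaving out each library.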

Additional observations from a re-analysis of the deposited data

Results flagged for a closer look

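Dlst and Mcur1 stood out because their levels in the 2 diets differed in opposite directions under the 2 labels. For Dlst, all 3 WT livers were higher in HFCF (191 to 207.5 CPM) than in chow (170.4 to 183 CPM), and all 3 HuRHep-/- livers were lower (94.85 to 105 against 113 to 130 CPM), so the genotype difference in HFCF minus that in chow was -0.41 on the log2 scale. For Mcur1 the WT livers had 38.8 to 42.5 CPM in HFCF and 35.6 to 37.5 CPM in chow, and the HuRHep-/- livers 21.8 to 22.8 against 23.1 to 25.6 CPM. The difference was -0.27. These differences were not tested, because both genotype contrasts were used to pick the members. Scaled by library totals, the HuRHep-/- livers of the 2 diets overlapped (107.6 to 118.5 against 110.6 to 118.9 CPM for Dlst and 24.1 to 25.8 against 22.6 to 25.35 CPM for Mcur1), and the differences were -0.36 and -0.22. With upper-quartile scaling those of Mcur1 overlapped too (22.4 to 23.5 against 22.8 to 25.3 CPM).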

How the results depend on the processing

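In each diet the 9 members kept lower estimates in livers labelled HuRHep-/- under every alternative run. The runs use the livers that picked the members, so this is a description and not support. With library totals their median difference was -0.77 in chow and -0.83 in HFCF, since the median of all genes moved by 0.08 and 0.15, and with each library left out it ran from -0.90 to -0.79 in chow and from -1.001 to -0.954 in HFCF. Pathway genes called by genotype numbered 2 in chow and 4 in HFCF with library totals, where Ido2 and Aadat were not among the 4, and 2 in chow and 5 in HFCF with all 12 livers in 1 fit. In HFCF 1 was called with upper-quartile scaling and 1 with at least 10 counts in every library. With the adjusted p alone it was 5 in chow, 7 in HFCF and 50 between diets, and 3 members passed between diets. With each library left out the pathway calls ran from 0 to 2 in chow and from 0 to 8 in HFCF. Diet estimates near 0 changed sign: Dlst to 0.0207 with upper-quartile scaling and 0.161 with library totals, Mcur1 to 0.0591 and 0.199 and, with at least 10 counts in every library, 0.0231, and Ddx23 to 0.0851 with library totals. With each library left out they ran from -0.0261 to 0.00997 for Mcur1, from -0.0077 to 0.077 for Ptgr2 and from -0.0198 to 0.0641 for Tmem250-ps. The cause of these changes was not tested, apart from the shift in scaling. With the replicate number as a block, the medians stayed at -0.85 and -0.98, 1 pathway gene was called in chow, 4 in HFCF and 12 between diets, and 0 members between diets. Deviations of same-numbered livers correlated at -0.03 to 0.11 in chow and 0.09 to 0.19 in HFCF, so the numbers were not taken to pair the livers. Depth limits A430018G15Rik most, at 13 to 38 counts per HuRHep-/- liver.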
